A study of Rattus norvegicus with 6 samples.

Results

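Genes of the red cell lineage were followed through condylar cartilage, the tissue that caps the mandibular condyle of the temporomandibular joint. A total of 9 genes were chosen by name: the α-globin genes Hba-a1 and Hba-a2, the β-globin gene Hbb, and the precursor genes Alas2, Slc4a1, Klf1, Gata1, Epor and Tfrc. Each was matched to the gene symbols of the deposited gene table and, where several rows carried a symbol, the protein coding row with the highest mean FPKM was taken. FPKM is the number of fragments scaled to transcript length and to the fragments mapped in the library, so that it can be compared between genes of different length. The 9 genes fell on 8 of 44746 rows, because Hba-a1 and Hba-a2 share a single assembled row. All 8 rows passed the filter on low values, a mean of at least 0.1 FPKM, as did 30668 rows in all.

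The UAC group consisted of female Sprague-Dawley rats with unilateral anterior crossbite, an altered bite of the front teeth on one side that changes the load on the joint, and their cartilage was taken 8 weeks later. The CON group consisted of control rats of the same strain and sex, kept for the same 8 weeks. All rats were aged 6 weeks at the start, blood on the tissue surface was washed off with cold saline, and ribosomal RNA was removed before sequencing. There were 3 libraries in each group. Whether each library came from its own rat, or from several pooled rats, is not stated, so p-values measure only the spread between these libraries, which may be technical.

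Red cells arise in the marrow from dividing erythroid precursors. GATA1 and KLF1 are the transcription factors that switch on the erythroid program, the erythropoietin receptor EPOR keeps early precursors alive, the transferrin receptor TFRC brings in iron, and ALAS2 makes the first committed intermediate of heme. Later precursors fill with globin and place the anion exchanger band 3 (SLC4A1) in the membrane, lose the nucleus, and leave as reticulocytes that still carry globin RNA. The condylar cartilage lies directly on bone with marrow spaces, and the study describes the joint surface as fibrocartilage and subchondral bone.

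The libraries held 72202281, 86523541 and 71524713 gene counts in UAC and 85923949, 80960444 and 84723826 in CON. Col2a1, the main collagen of hyaline cartilage, lay between 1014 and 1972 FPKM in UAC and between 1182 and 1909 FPKM in CON, while Matn1, a cartilage matrix protein, was listed at or near 0 in every library. Markers of bone, osteoclasts and marrow cells were also present: Bglap, the osteoblast product osteocalcin, lay between 1013 and 1361 FPKM in UAC and between 1146 and 1403 FPKM in CON, and S100a8, a protein of neutrophils, between 834.0 and 1391 FPKM in UAC and between 661.8 and 738.4 FPKM in CON. Skeletal muscle genes set UAC replicate 1 apart from its group, with a summed level over 9 marker genes of 279.9 FPKM in UAC replicate 1 and of 36.3 and 31.0 FPKM in UAC replicates 2 and 3, against 82.4 to 178.5 FPKM in CON.

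Sequence just upstream of the gene starts is shown for the globin genes and for the transcription factor and the receptor of their precursors, taken from the promoter windows of RefSeq on rat build GRCr8, as the 200 bases before each start, 5′ to 3′ on the gene's strand. Capitals mark matches, on either strand, to 4 short motifs. The first, a GATA motif, is read as AGATAA in any of its 4 spellings, in which the opening letter may also be T and the closing letter may also be G. The second, a CACCC motif, is spelled CCNCNCCC with N for any base. The third is the CCAAT box, spelled as it is named. The last, a TATA box, was searched as the run TATAAA. The α-globin windows lie at chr10:15842581-15842780 for Hba-a1 and chr10:15829139-15829338 for Hba-a2, the β-globin window at chr1:167663722-167663921, the Klf1 window at chr19:40158652-40158851 and the Epor window at chr8:28770323-28770522, all on the minus strand.
Hba-a1: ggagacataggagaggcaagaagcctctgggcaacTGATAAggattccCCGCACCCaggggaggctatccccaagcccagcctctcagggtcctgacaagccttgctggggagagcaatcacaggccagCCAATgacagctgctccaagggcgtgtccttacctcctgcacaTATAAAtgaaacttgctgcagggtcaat
Hba-a2: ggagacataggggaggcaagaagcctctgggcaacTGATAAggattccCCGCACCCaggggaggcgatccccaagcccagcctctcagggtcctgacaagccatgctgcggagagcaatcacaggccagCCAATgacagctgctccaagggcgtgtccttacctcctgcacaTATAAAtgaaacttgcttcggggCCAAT
Hbb: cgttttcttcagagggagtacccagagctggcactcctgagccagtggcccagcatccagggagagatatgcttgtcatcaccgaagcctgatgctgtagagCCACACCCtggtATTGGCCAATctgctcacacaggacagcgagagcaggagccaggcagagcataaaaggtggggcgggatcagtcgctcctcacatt
Klf1: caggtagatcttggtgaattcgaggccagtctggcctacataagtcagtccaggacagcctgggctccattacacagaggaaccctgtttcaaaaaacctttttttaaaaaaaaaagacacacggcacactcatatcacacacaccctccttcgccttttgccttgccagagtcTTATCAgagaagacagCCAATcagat
Epor: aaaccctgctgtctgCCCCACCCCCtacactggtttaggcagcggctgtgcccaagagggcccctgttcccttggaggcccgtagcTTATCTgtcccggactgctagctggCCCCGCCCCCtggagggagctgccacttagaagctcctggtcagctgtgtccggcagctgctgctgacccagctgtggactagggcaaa
The windows of Hba-a1 and Hba-a2 were identical at 193 of 200 bases (96.5%), and each held a GATA match starting 165 bases, a CACCC match 152 bases, a CCAAT match 71 bases and a TATA match 28 bases before the start. Hba-a2 held a further CCAAT match 5 bases before the start. Hbb held a CACCC match at 98 bases and 2 adjoining CCAAT matches, at 86 and 81 bases. Klf1 held a GATA match at 26 bases and a CCAAT match at 10 bases. Epor held a GATA match at 114 bases and 4 CACCC matches that overlap in pairs, at 185 and 183 bases and at 89 and 87 bases. Tfrc held 2 overlapping CACCC matches and a CCAAT match and is not printed, and the RefSeq windows for Alas2 and Gata1 lie inside the annotated gene and were left out. Of the 6 windows that lie before the gene, 4 held a GATA match, 5 a CACCC match, 5 a CCAAT match and 2 a TATA match. Over 33469 rat promoter windows of the same length, 21.8% held the GATA letters, 39.2% the CACCC letters, 29.2% CCAAT and 10.4% TATAAA. A match is a run of letters and not a measured binding site.

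With all libraries kept, no globin or precursor row passed a threshold for a difference between UAC and CON. With so few libraries this does not show that the groups were equal. Log2 fold changes of UAC over CON ran between -0.24 for Tfrc and 0.31 for Gata1, and 6 of the 8 rows were above 0. No row passed an adjusted p of 0.05 in edgeR's quasi-likelihood test with Benjamini-Hochberg adjustment (0 of 8, beside 0.0196% of all tested rows), and 0 of 8 reached an unadjusted p of 0.05, which 9.08% of all tested rows did. By DESeq2, too, 0 of 8 passed the adjusted threshold, beside 1.2% of all rows it tested. The thresholds of the study, an unadjusted p of 0.05 and an absolute log2 fold change of 1, were passed by 0 of 8 rows and by 1.88% of all rows. In all 8 rows the UAC and CON libraries overlapped, whereas in 15.7% of all rows the groups lay apart, 9.84% with UAC above CON and 5.87% with UAC below. In bulk RNA, more cells of a type and more RNA per cell cannot be told apart.

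**Figure D1:**
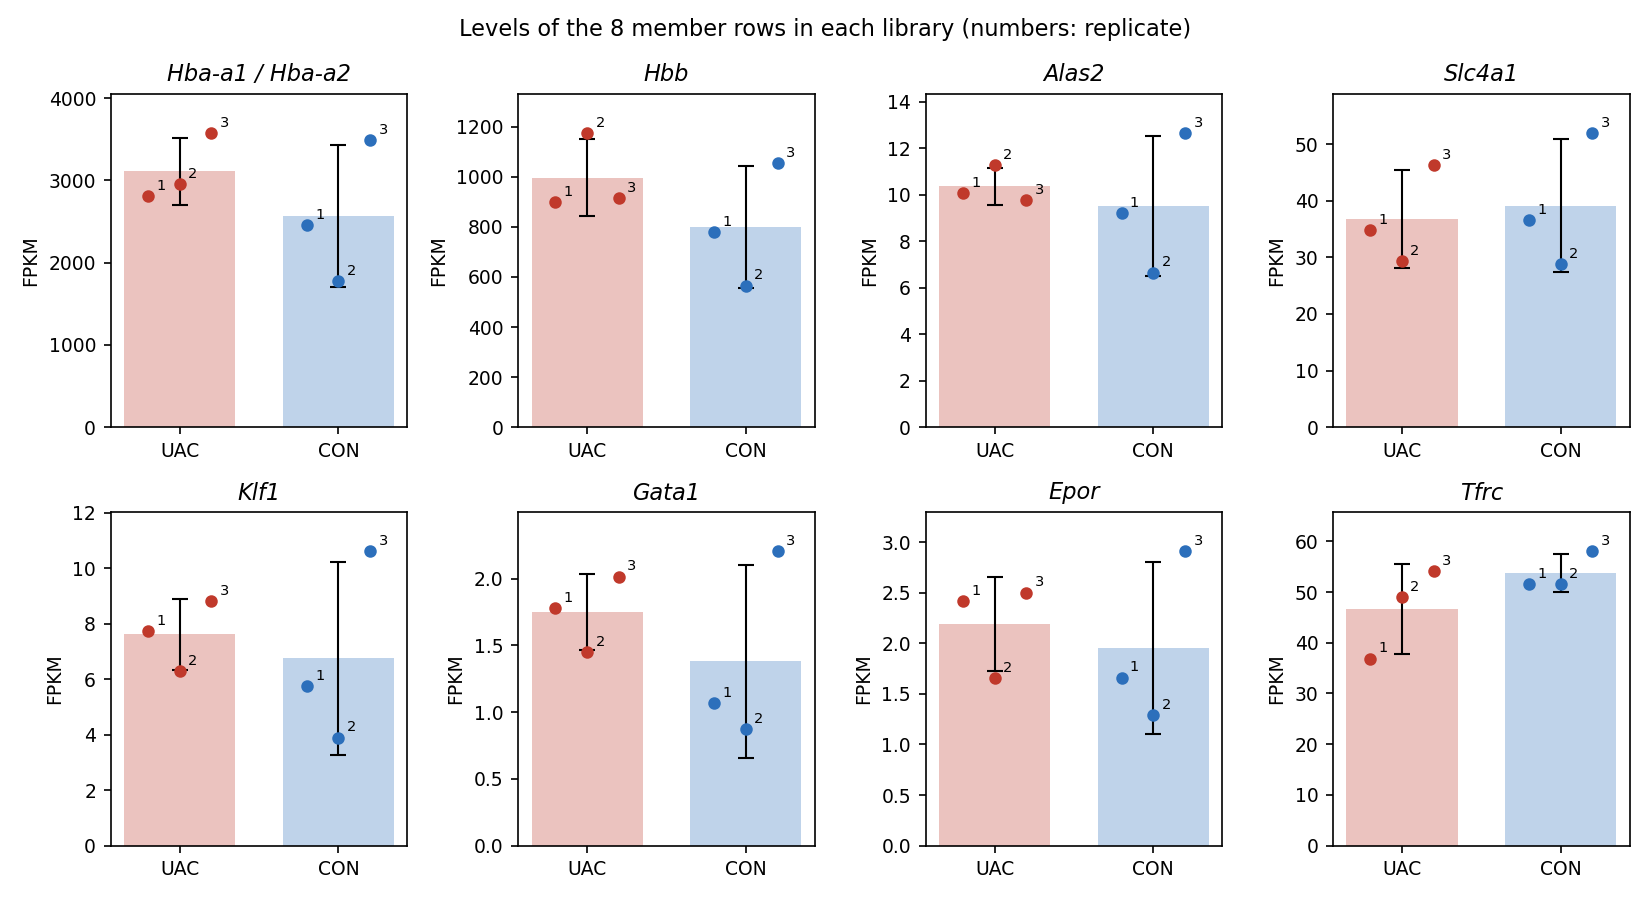
Levels of the 8 member rows in FPKM (y axis, from 0), with UAC libraries on the left and CON libraries on the right of each panel. Points are single libraries marked with their replicate number, bars are group means and error bars are SD (n = 3). UAC and CON overlap in every panel, and CON replicate 2 is the lowest library in every panel but Tfrc.

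The α-globin row is the most abundant of the set, rank 19 of all rows by mean FPKM. Its gene models lie at chromosome 10, 15589364 to 15603649, minus strand, in the coordinates of the files, whose build is not given in the sources used here. Hba-a1/Hba-a2 reached 2808, 2951 and 3578 FPKM in UAC, against 2456, 1774 and 3489 FPKM in CON. All UAC libraries were above CON replicates 1 and 2, and CON replicate 3 stood next to the highest UAC library. The means were 3112 ± 409.5 FPKM in UAC and 2573 ± 863 FPKM in CON (SD, n = 3 each). On the log2 scale UAC minus CON was 0.24 (SE 0.245, 95% interval -0.34 to 0.82, adjusted p = 0.807 by edgeR).

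Hbb, which encodes the β chain that pairs with α-globin, ranked 40 by mean FPKM (chromosome 1, 168971274 to 168972725, minus strand). It reached 900, 1175 and 914 FPKM in UAC, against 778, 565 and 1054 FPKM in CON. The highest library was UAC replicate 2 and the lowest CON replicate 2, and CON replicate 3 lay among the UAC libraries. The log2 fold change was 0.29 (SE 0.229, 95% interval -0.26 to 0.83, adjusted p = 0.740 by edgeR).

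Together these globin rows took up 0.409%, 0.444% and 0.504% of all gene counts in UAC, against 0.356%, 0.259% and 0.503% in CON. The top libraries of both groups were almost equal, and CON replicates 1 and 2 lay below all UAC libraries. The mean share was 0.452 ± 0.048% in UAC and 0.373 ± 0.123% in CON (SD, n = 3 each), a difference of 0.0796 percentage points (two-sided exact permutation test, p = 0.40, where the smallest p that 3 against 3 libraries allow is 0.1). With every row that carries a globin symbol counted, the difference was 0.109 points (exact permutation p = 0.40). That sum includes a row that also carries Luc7l, with 11479 to 21224 counts in each library, so it is not of globin RNA alone.

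How reads are shared among globin rows is uncertain. Hba-a1 and Hba-a2 are near-identical copies and have no separate values here. A row on the opposite strand, named for Luc7l and Hba-a2, overlaps the α-globin row and held 14.1, 12.3 and 14.5 FPKM in UAC, against 11.5, 8.31 and 14.7 FPKM in CON. The α-globin-like Hba-a3 held 10.3, 22.9 and 29.6 FPKM in UAC, against 28.8, 23.2 and 47.3 FPKM in CON, with overlapping groups and a log2 fold change of -0.69 (adjusted p = 0.658 by edgeR), the opposite sign to the main row.

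Near Hbb, 2 rows named for Hbb-bs and LOC100134871 overlap on opposite strands. The plus-strand row held 609.9, 681.3 and 665.3 FPKM in UAC, against 527.7, 373.5 and 735.1 FPKM in CON (log2 fold change 0.22, adjusted p = 0.800 by edgeR). The minus-strand row held 20.7, 31.6 and 23.4 FPKM in UAC, against 18.1, 11.2 and 19.5 FPKM in CON, and here all UAC libraries lay above all CON libraries (log2 fold change 0.60, unadjusted p = 0.0438, adjusted p = 0.544 by edgeR). Whether the counting used strand is not stated, so reads of these rows cannot be told apart.

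The globins of embryonic red cells were at or near 0. Hbz, the embryonic α-like chain, had 4 counts in UAC replicate 1 and 0 in the other libraries. Hbe1, an embryonic β-like chain, had 0, 7 and 17 counts in UAC and 24, 23 and 8 counts in CON, while Hbe2 had 0 counts throughout and Hbg1 had 4 counts in CON replicate 3. Hbq1b, a θ-like globin of the α cluster, was listed at a low level, with 6.21, 5.40 and 10.0 FPKM in UAC and 5.84, 4.53 and 9.37 FPKM in CON. Its row lies inside the span of the α-globin row on the same strand, so how reads are shared between them is uncertain. These embryonic rows and Hbq1b were named after their values were seen.

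Alas2, the erythroid form of 5-aminolevulinate synthase and the rate-limiting enzyme of heme synthesis in red cell precursors, lies on chromosome X (23167696 to 23192110 in the files). It reached 10.1, 11.3 and 9.76 FPKM in UAC, against 9.20, 6.65 and 12.7 FPKM in CON. The UAC libraries were close to each other, and the CON libraries spread on both sides of them, from below to above. Means were 10.4 ± 0.793 FPKM in UAC and 9.50 ± 3.02 FPKM in CON (SD, n = 3 each), and the log2 fold change was 0.09 (SE 0.208, 95% interval -0.40 to 0.59, adjusted p = 0.929 by edgeR).

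Slc4a1, band 3 of the red cell membrane, lies on chromosome 10 (90296141 to 90312386 in the files) and is also made as a shorter form in kidney. It reached 34.8, 29.3 and 46.4 FPKM in UAC, against 36.6, 28.8 and 52.0 FPKM in CON. Here CON replicate 2 and UAC replicate 2 were about equally low, and the third library of each group was its highest. The log2 fold change was -0.13 (SE 0.236, 95% interval -0.69 to 0.44, adjusted p = 0.911 by edgeR).

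Klf1, the activator of adult β-globin (chromosome 19, 26016382 to 26019553), reached 7.75, 6.28 and 8.83 FPKM in UAC, against 5.74, 3.90 and 10.6 FPKM in CON. All UAC libraries lay inside the range of CON, whose replicate 2 was the lowest and replicate 3 the highest of the 6. The log2 fold change was 0.14 (SE 0.337, 95% interval -0.66 to 0.94, adjusted p = 0.935 by edgeR).

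Gata1 (chromosome X, 15273933 to 15281759) was the least abundant row, at 1.78, 1.45 and 2.02 FPKM in UAC, against 1.07, 0.871 and 2.20 FPKM in CON. It rested on 257 to 296 counts in UAC and on 145 to 383 counts in CON. Its log2 fold change was the highest of the set, 0.31 (SE 0.350, 95% interval -0.53 to 1.14, adjusted p = 0.833 by edgeR). CON replicate 3 was again above all UAC libraries.

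Of the receptors, Epor (chromosome 8, 22969745 to 22974321) reached 2.41, 1.65 and 2.50 FPKM in UAC, against 1.66, 1.29 and 2.91 FPKM in CON. Its order of libraries was close to that of Klf1 and Gata1, with CON replicates 2 and 3 at the ends. The log2 fold change was 0.13 (SE 0.314, 95% interval -0.62 to 0.88, adjusted p = 0.937 by edgeR). Epo, the ligand made by kidney and liver, was listed at 0.0348 FPKM in UAC replicate 3 and at 0 elsewhere, and was not tested.

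Tfrc (chromosome 11, 71397383 to 71419223), which many dividing cells besides erythroid precursors use to take up iron, behaved unlike the other rows. It reached 36.9, 49.0 and 54.1 FPKM in UAC, against 51.5, 51.6 and 58.0 FPKM in CON. The lowest library was UAC replicate 1, and the CON libraries were close to each other. The log2 fold change was -0.24 (SE 0.161, 95% interval -0.63 to 0.14, adjusted p = 0.686 by edgeR), and the ratio of its highest to its lowest library, 1.57, was the smallest of the 8 rows. A single circular RNA of these genes was listed, from Tfrc, with 1 junction read in UAC replicate 1.

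**Figure D2:**
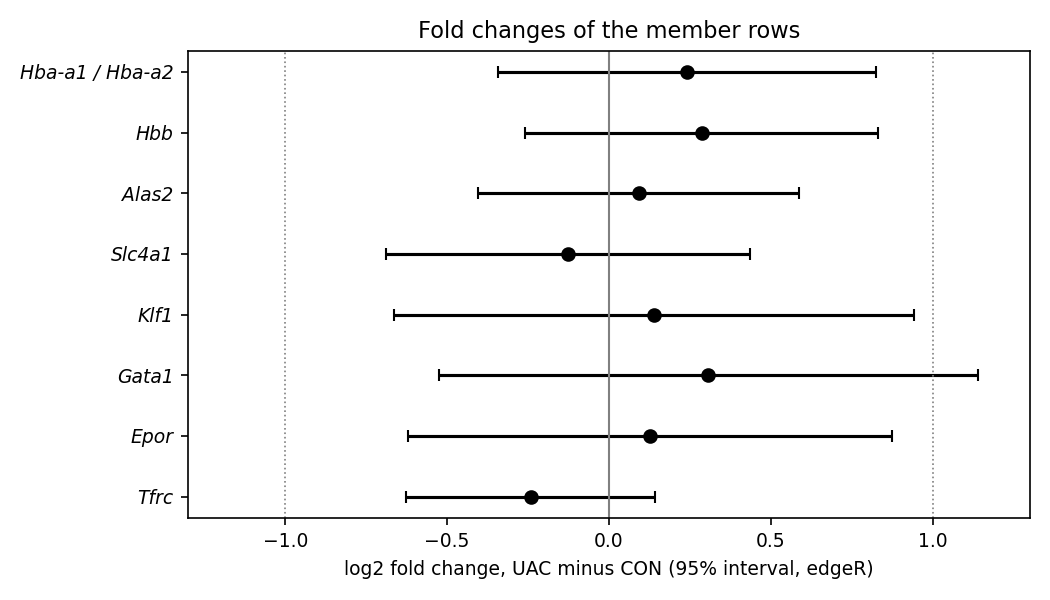
Log2 fold changes of the 8 member rows, UAC minus CON (x axis), with 95% intervals from edgeR's quasi-likelihood fit (n = 3 each). All intervals include 0, and the dotted lines mark the study's threshold of 1 on either side. The widest interval is that of Gata1, -0.53 to 1.14.

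In every row but Tfrc, whose libraries spread more within UAC, the wider spread lay within the CON group. CON replicate 2 was the lowest of the 6 libraries in 7 of 8 rows, beside 22.3% of all tested rows, and CON replicate 3 was the highest in 6 of 8, beside 15.9% of all tested rows. Both held in 5 rows, Alas2, Slc4a1, Klf1, Gata1 and Epor, beside 3.37% of all tested rows. The FPKM ratio of CON replicate 3 to CON replicate 2 was 1.97 for Hba-a1/Hba-a2, 1.87 for Hbb, 1.904 for Alas2, 1.80 for Slc4a1, 2.73 for Klf1, 2.53 for Gata1 and 2.26 for Epor, and 1.12 for Tfrc. Among all 24097 rows with a mean of at least 1 FPKM the median of that ratio was 1.05, and a ratio as high as that of Klf1 was met by 1.96% of them, as high as that of Slc4a1 by 5.47%, and as high as that of Tfrc by 35.6%. These 2 libraries are replicates with the same label, chosen for this description after their values were seen, and no test was made of their difference.

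Within UAC the rows did not move in step. UAC replicate 2 had the highest level of Hbb and of Alas2 in its group, yet the lowest of Slc4a1, Klf1, Gata1 and Epor. Klf1 per 1000 FPKM of Hbb was 8.61, 5.35 and 9.66 in UAC, against 7.38, 6.89 and 10.1 in CON, and Gata1 per 1000 FPKM of Hbb was 1.98, 1.24 and 2.21 in UAC, against 1.37, 1.54 and 2.09 in CON. For both, UAC replicate 2 was the lowest library and the groups overlapped. The α-globin row over Hbb was 3.12, 2.51 and 3.91 in UAC, against 3.16, 3.14 and 3.31 in CON. That ratio was nearly constant across the CON libraries, although their globin levels were furthest apart. The plus-strand row of Hbb-bs and LOC100134871, at 373.5 to 735.1 FPKM, is left out of these ratios. They therefore do not give the balance of all α- to all β-globin RNA.

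Alas2 was also set against globin RNA within each library. Bulk libraries do not tell precursors from reticulocytes, so the ratio does not measure the share of either. The globin rows used here are Hba-a1/Hba-a2 and Hbb, without those of Hbb-bs. Alas2 per 1000 FPKM of these rows was 2.72, 2.73 and 2.17 in UAC, against 2.84, 2.84 and 2.79 in CON. All UAC libraries lay below all CON libraries, and UAC replicate 3 lay furthest down. The log2 difference was -0.16, a fold of 0.895 (two-sided exact permutation test, p = 0.1, the smallest p this design allows), and on counts in place of FPKM it was -0.16 (exact permutation p = 0.2). Without UAC replicate 3 the log2 difference was -0.05, so that most of it came from that library.

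**Figure D3:**
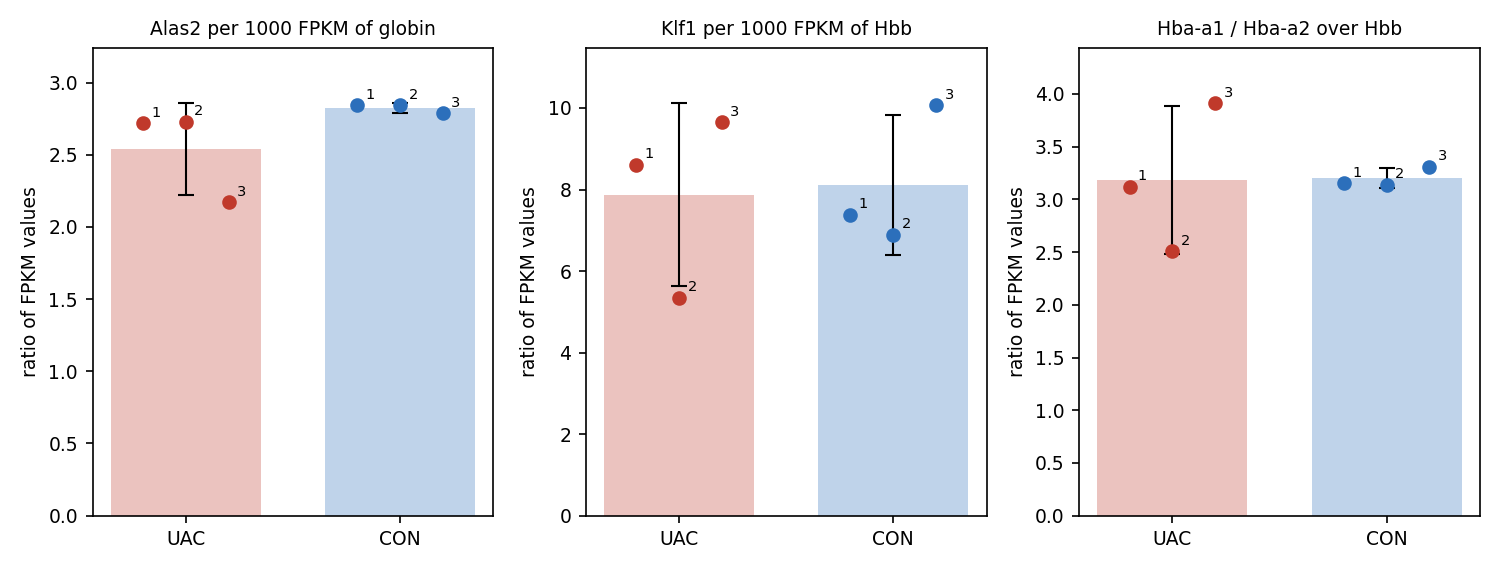
Ratios of FPKM within each library (y axes, from 0), with UAC on the left and CON on the right. The panels show Alas2 per 1000 FPKM of the Hba-a1/Hba-a2 and Hbb rows, Klf1 per 1000 FPKM of Hbb, and the α-globin row over Hbb. Points are libraries with their replicate number, bars are means and error bars SD (n = 3). The CON libraries lie between 2.79 and 2.84 in the first panel, and UAC replicate 3 lies at 2.17.

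By the closeness of its centred log2 profile over the 6 libraries, the 8 protein coding genes most like Alas2, out of 11336 candidates with a mean of at least 1 FPKM, were Stard6, Hist1h2ail1, Hist1h2ak, the plus-strand row of Hbb-bs and LOC100134871, AABR07041778, hist1h2ail2, H1f1 and Fignl1. Their root mean square differences from Alas2 ran between 0.0809 and 0.0954 on the log2 scale, against a median of 0.306 over the candidates. Of these, 4 are linker or core histone genes, which dividing cells use to package new DNA. Hist1h2ail1 reached 81.5, 86.6 and 80.8 FPKM in UAC, against 80.1, 61.9 and 106.8 FPKM in CON, again with CON replicates 2 and 3 at the ends. Among the other member rows Hbb was nearest to Alas2 (0.113), followed by Hba-a1/Hba-a2 (0.167), Klf1 (0.261), Epor (0.262), Gata1 (0.274) and Slc4a1 (0.279), and Tfrc was furthest (0.340). These are likenesses over 6 libraries that share their preparation, given as a description.

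The wider erythroid program was read from lists of genes, each described by its counts and its median log2 fold change. The list of other globins, which holds Ahsp and also the muscle globin Mb, had 7 tested genes. At an unadjusted p of 0.05, 0 of these were higher and 0 lower, with a median log2 fold change of 0.005. None of the 98 tested genes of 7 such lists passed the adjusted threshold in edgeR, and 1, Tf, did in DESeq2, a share close to the 1.2% of all rows that DESeq2 called. With p unadjusted, 6 reached 0.05 higher in UAC and 2 lower, beside 4.69% and 4.39% of all tested rows. The median log2 fold change was 0.06, beside -0.002 for all rows. The groups lay apart with UAC above in 10 of the 98 and with UAC below in 1, beside 9.84% and 5.87% of all tested rows. These shares also stand beside the counts of each list below. Nor did the pattern within CON end with the members. The 4 lists of heme synthesis, membrane, transcription factors and late maturation held 67 tested genes. CON replicate 2 was the lowest library in 46 of them, beside 22.3% of all tested rows, and CON replicate 3 the highest in 35, beside 15.9%. Their median ratio of CON replicate 3 to CON replicate 2 was 1.56, beside 1.05 over rows with a mean of at least 1 FPKM. In the transcription factor list CON replicate 3 was the highest in 4 of 14 genes, and the median ratio was 1.32.

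Heme synthesis had 16 tested genes, 1 higher and 1 lower at an unadjusted p of 0.05, and a median log2 fold change of 0.05. Abcb6, a porphyrin transporter, had a log2 fold change of -0.30 with overlapping groups (adjusted p = 0.539 by edgeR). Cpox, a later enzyme of the pathway, was at 15.9, 13.0 and 17.7 FPKM in UAC and 13.2, 10.1 and 20.5 FPKM in CON, and like Alas2 it was lowest in CON replicate 2 and highest in CON replicate 3, but within UAC it was lowest in replicate 2, where Alas2 was highest (picked after its values were seen).

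The membrane and cytoskeleton list had 19 tested genes, 1 higher and 0 lower at an unadjusted p of 0.05, with a median log2 fold change of 0.10. The gene past that level was Stom, the membrane protein stomatin, which is also made outside the red cell lineage. It was at 29.8, 27.8 and 27.4 FPKM in UAC, against 23.3, 19.0 and 22.4 FPKM in CON, with the groups apart (log2 fold change 0.35, SE 0.084, adjusted p = 0.452 by edgeR).

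Red cell enzymes and late maturation genes numbered 20 tested, with 2 higher and 0 lower in UAC by unadjusted p (median log2 fold change 0.05). Bpgm, which makes the 2,3-bisphosphoglycerate that loosens oxygen from hemoglobin, was at 25.6, 25.4 and 26.2 FPKM in UAC, against 19.2, 18.4 and 24.8 FPKM in CON, with UAC above CON (log2 fold change 0.27, adjusted p = 0.547 by edgeR). Mkrn1, a ubiquitin ligase of wide expression, was also apart (log2 fold change 0.39, adjusted p = 0.513 by edgeR) and, unlike the members, was lowest in CON replicate 3. Ahsp, the chaperone of free α-globin, comes from the list of other globins and was again picked after its values were seen. It was at 90.0, 72.3 and 116.9 FPKM in UAC, against 71.3, 49.8 and 132.3 FPKM in CON, a log2 fold change of 0.11 (adjusted p = 0.952 by edgeR).

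Erythroid transcription factors had 14 tested genes, with 0 past an unadjusted p of 0.05 and a median log2 fold change of 0.12. Foxo3, which in erythroid cells controls antioxidant genes, and Lyl1, a helix-loop-helix factor of blood stem cells, lay above CON in all UAC libraries, with log2 fold changes of 0.19 and 0.22 (adjusted p = 0.586 and 0.590 by edgeR). Nfe2, the p45 subunit of a globin and platelet gene activator, had 0.32 and Myb, a factor of immature blood cells, 0.39, both with overlapping groups (adjusted p = 0.615 and 0.701 by edgeR).

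Signaling through the erythropoietin and KIT receptors had 12 tested genes, 1 higher and 1 lower at an unadjusted p of 0.05, with a median log2 fold change of 0.15. Jak2, the kinase bound to EPOR, was at 10.8, 10.0 and 10.7 FPKM in UAC, against 8.89, 8.96 and 9.57 FPKM in CON (log2 fold change 0.16, adjusted p = 0.547 by edgeR). Socs2, an inhibitor that cytokine signaling induces, was at 4.64, 4.53 and 4.79 FPKM in UAC, against 6.48, 5.11 and 5.70 FPKM in CON (log2 fold change -0.35, adjusted p = 0.500 by edgeR). Kit, the stem cell factor receptor, had a log2 fold change of 0.21 (adjusted p = 0.569 by edgeR). In each of these the groups lay apart, as they did in 15.7% of all tested rows, and the genes were named by their small p. CON replicate 2 was the lowest library in 4 of the 12 genes of the list, beside 22.3% of all tested rows.

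Iron uptake and storage had 12 tested genes, 1 higher and 0 lower at an unadjusted p of 0.05 (median log2 fold change 0.05). Tf, the plasma iron carrier transferrin and the ligand of TFRC, was at 255.3, 172.5 and 182.6 FPKM in UAC, against 109.9, 124.6 and 138.4 FPKM in CON. All UAC libraries lay above all CON libraries, with UAC replicate 1 highest (log2 fold change 0.66, SE 0.157, adjusted p = 0.449 by edgeR and 0.00620 by DESeq2), while its receptor Tfrc was lowest in that same library. Fth1, the ferritin heavy chain, had a log2 fold change of 0.08 (adjusted p = 0.803 by edgeR). The row that carries Hfe also carries histone symbols and is uncertain.

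**Figure D4:**
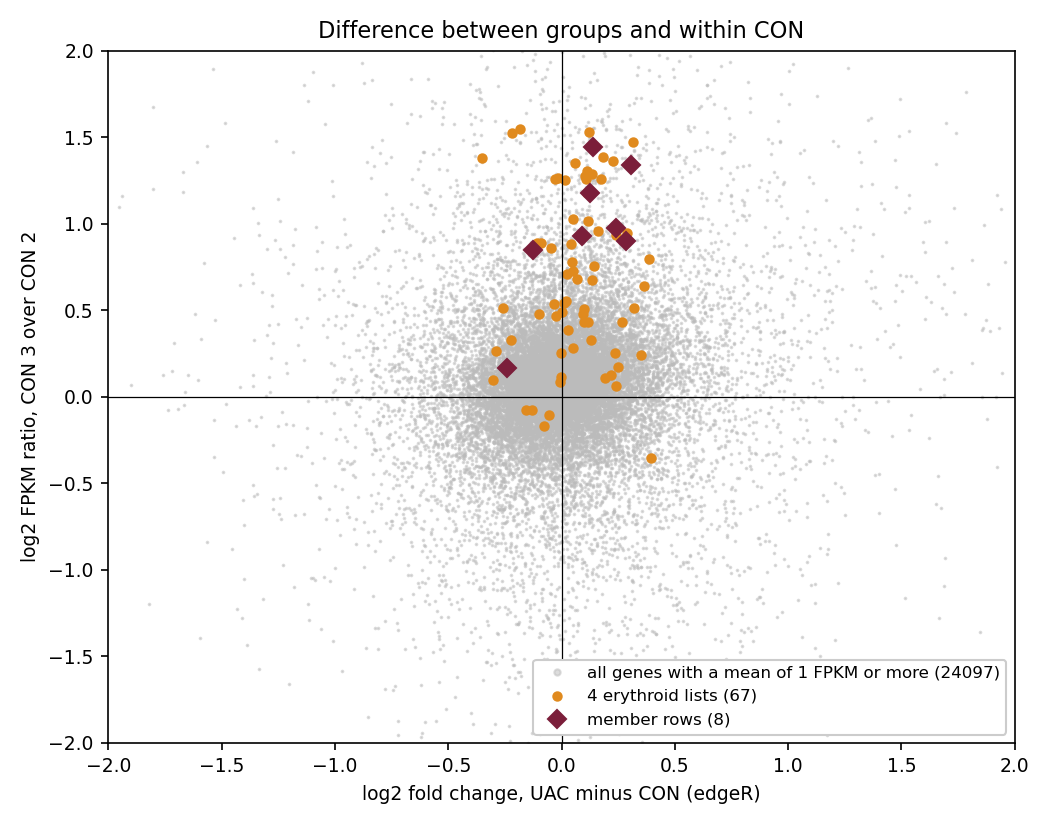
Log2 fold change of UAC minus CON (x axis, edgeR) against the log2 FPKM ratio of CON replicate 3 over CON replicate 2 (y axis), for all rows with a mean of at least 1 FPKM (grey), the 67 genes of 4 erythroid lists (orange) and the 8 member rows (dark diamonds). The axes share the CON libraries and are shown side by side, not as a relation. The members stay within -0.24 and 0.31 on the x axis, while 7 of 8 lie at ratios of 1.80 to 2.73, and 484 grey rows fall beyond the axes.

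Other cell types of the marrow and joint were read from marker lists, since they can enter a dissection with the erythroid cells. Markers of dividing cells had their lowest library in CON replicate 2 in 9 of 10 genes, beside 7 of 8 member rows and 22.3% of all tested rows. CON replicate 3 was their highest library in 2 of 10, beside 6 of 8 member rows and 15.9% of all tested rows. Their summed levels were 132.7 to 162.1 FPKM in UAC and 96.7 to 150.8 FPKM in CON. Rrm2, which makes deoxynucleotides for DNA synthesis, was at 22.6, 20.6 and 18.8 FPKM in UAC, against 17.9, 5.32 and 20.7 FPKM in CON. Pcna, the sliding clamp of DNA polymerase, was at 37.4, 36.7 and 30.1 FPKM in UAC, against 33.0, 26.6 and 33.9 FPKM in CON. Their part in the members' levels was not tested.

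The list of neutrophil precursor markers also holds genes not limited to precursors, such as S100a8, a protein of neutrophils. It differed from the members in its order of libraries. Of 13 tested genes 13 had a log2 fold change above 0 and 7 were higher at an unadjusted p of 0.05, beside 4.69% of all tested rows, with a median of 0.56. In edgeR 0 passed the adjusted threshold (lowest adjusted p = 0.423), and in DESeq2 4 did, all higher in UAC, beside 0.737% of all rows it tested. Their summed level was 2330 to 4074 FPKM in UAC and 2010 to 2299 FPKM in CON, Ltf was at or near 0 throughout, and UAC replicate 1 was the highest library, where the members were not. S100a8 and S100a9 held 1391 and 1495 of the 4074 FPKM summed in UAC replicate 1. Ngp, a neutrophil granule protein, was at 478.9, 274.1 and 372.6 FPKM in UAC, against 162.0, 239.9 and 265.2 FPKM in CON. Mpo, Elane, Prtn3 and Ctsg of this list were named after their values were seen. Their groups overlapped, and their unadjusted p stayed above 0.05 (0.0638, 0.137, 0.151 and 0.192 by edgeR). Mast cell, basophil and eosinophil markers had 3 of 11 higher by unadjusted p, 2 of them past the adjusted threshold in DESeq2, and a median of 0.64, and 1 row, named for Ms4a2 and Ms4a3, counts in both lists. The most abundant was Prg2, the eosinophil major basic protein, at 198.3, 195.8 and 141.0 FPKM in UAC, against 81.7, 82.5 and 159.1 FPKM in CON. The part of these cells in the members' levels was not tested.

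Megakaryocytes are of the lineage that shares its GATA1-dependent progenitor with red cells. Their markers had 0 of 10 past an unadjusted p of 0.05 and a median of 0.22. CON replicate 2 was the lowest library in 1 of the 10, beside 22.3% of all tested rows. Pf4, a platelet chemokine, was at 39.6, 27.3 and 23.1 FPKM in UAC, against 20.9, 25.3 and 25.1 FPKM in CON. Macrophages of the erythroblastic island nurse precursors and take up their nuclei. Of their 9 tested markers, 2 were higher and 2 lower by unadjusted p, beside 4.69% and 4.39% of all tested rows. The adhesion receptor Vcam1 was at 11.8, 10.5 and 8.37 FPKM in UAC, against 5.74, 5.18 and 7.54 FPKM in CON (log2 fold change 0.69, adjusted p = 0.448 by edgeR and 0.0124 by DESeq2), while Cd68, of macrophages and osteoclasts, was at 91.9, 76.0 and 96.5 FPKM in UAC, against 99.6, 100.8 and 115.6 FPKM in CON (log2 fold change -0.30, adjusted p = 0.504 by edgeR). Vcam1 was named by its p and not by its level, after its values were seen. It was the 1 gene of these 9 past the adjusted threshold in DESeq2, beside 0.737% of all rows called higher.

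Bone and vessel markers had medians below 0, and their counts by unadjusted p stand beside 4.69% higher and 4.39% lower over all tested rows. Osteoclast markers had 1 of 10 higher and 4 lower (median -0.30), endothelial markers 0 of 8 higher and 2 lower (median -0.23), osteoblast markers 0 of 9 higher and 2 lower (median -0.13), and B cell precursors 0 of 9 higher and 1 lower (median -0.01). Chondrocyte markers had 0 of 10 past an unadjusted p of 0.05 (median 0.03), and skeletal muscle markers 0 of 9 higher and 1 lower (median 0.11). Past the adjusted threshold in DESeq2 were the osteoclast genes Calcr, higher in UAC, and Acp5, lower, the bone sialoprotein gene Ibsp, lower (adjusted p = 7.94e-09 by DESeq2 and 0.328 by edgeR), and the muscle gene Tnnt1, lower, beside 0.459% of all rows called lower. Of these, Calcr, Ibsp and Tnnt1 were named after their values were seen. Chondrocyte genes were highest in UAC replicate 2 and CON replicate 1. The part of these cells in the members' levels was not tested.

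**Figure D5:**
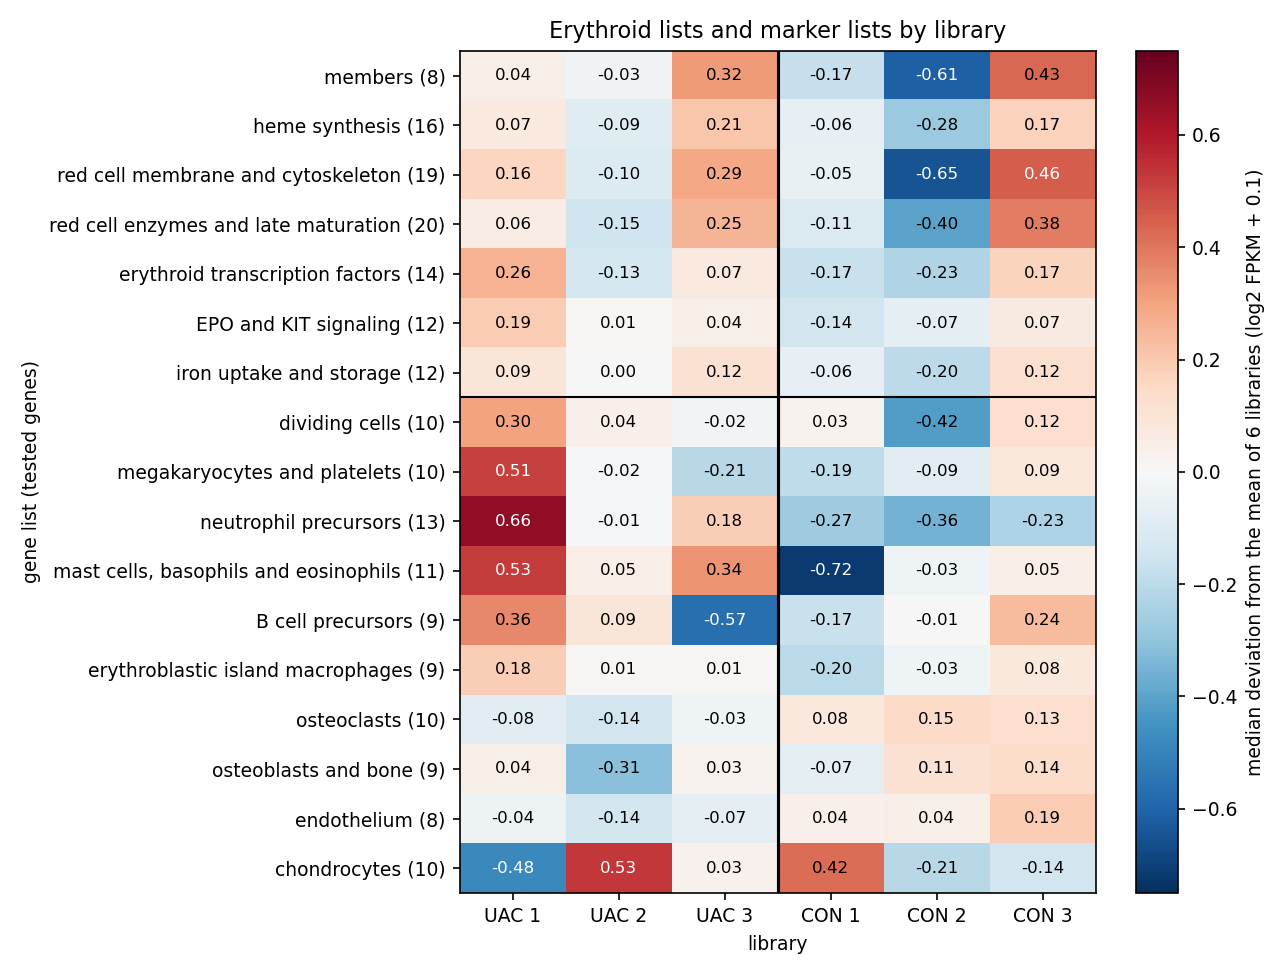
Median deviation of each list's tested genes from their own mean over the 6 libraries, in log2 FPKM plus 0.1 (colour and printed value), with UAC libraries to the left and CON libraries to the right of the vertical line, and erythroid lists above the horizontal line. The members stand at -0.61 in CON replicate 2 and 0.43 in CON replicate 3, and the membrane list at -0.65 and 0.46. The neutrophil list stands at 0.66 in UAC replicate 1 and below 0 in all CON libraries.

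Leaving out CON replicate 3 moved the log2 fold changes of all 8 rows upward. Without that library 3 of 8 rows reached an unadjusted p of 0.05 (Gata1 at a log2 fold change of 0.79, Klf1 at 0.60 and Hbb at 0.52), all higher in UAC, beside 7.82% of all tested rows in the same fit and 4.14% counting only those higher in UAC, and none passed an adjusted p of 0.05, with edgeR's adjusted p at 0.606 for Gata1. Without CON replicate 2, in contrast, Alas2, Klf1 and Epor had log2 fold changes of -0.09, -0.12 and -0.08. The direction of the difference between UAC and CON thus depended, for these genes, on which control library was kept.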

How the data were processed

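Condylar cartilage RNA of 3 UAC and 3 CON libraries was sequenced after ribosomal RNA depletion. Per the study's methods, adapters were removed with cutadapt (version 1.9, from the submitters' processing notes) and quality was read from FastQC, Bowtie2 and Hisat2 served as mappers, StringTie assembled and quantified transcripts, and edgeR tested them. The genome build they mapped to is not given in the sources used here. Values in the deposited gene table are whole-number counts and FPKM, in which the authors listed absent genes at 0.0001, and the deposited circRNA table holds junction counts and a score scaled to library size, which was used only to find circRNAs of the members. The lncRNA table was not used here. Precision was limited by 3 libraries a group.

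Counts of 30668 rows with a mean of at least 0.1 FPKM were fitted with edgeR 4.0.16 (TMM, quasi-likelihood test, two-sided), with Benjamini-Hochberg adjustment over all rows. Standard errors came from the coefficient and its F statistic. Single values per library were tested over the 20 assignments of libraries, and profiles used log2 of FPKM plus 0.1. The steps were tested on simulated data, with the same dispersion for every gene and changes larger than those of the members. How well changes of the members' size and spread would be found was not tested. Members and lists were chosen with earlier results of these data known. Named genes were all members, up to 4 genes with the smallest p per list, the 3 most abundant measured genes per marker list and the 8 genes most like Alas2. Any other gene is said to be named after its values were seen. Some genes that these rules would name are not reported here. Promoter windows were read from RefSeq tables (GRCr8), in which 8 of 9 members had an entry, all but Slc4a1. Alternatives were other scalings, filters, tests (DESeq2 1.42.0, limma 3.58.1), a replicate block, summed rows and each library left out.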

Additional observations from a re-analysis of the deposited data

How the results depend on the processing

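Of 121 member fold changes under alternatives, 116 kept their sign and stayed short of the threshold, and the lowest adjusted p was 0.593. The 5 that changed sign came from leaving out a library: Slc4a1 was at 0.00 without UAC replicate 2 and at 0.11 without CON replicate 3, and Alas2, Klf1 and Epor were at -0.093, -0.122 and -0.083 without CON replicate 2. With a library left out in turn, log2 fold changes ranged over 0.05 to 0.50 for Hba-a1/Hba-a2, 0.11 to 0.52 for Hbb, -0.09 to 0.33 for Alas2, -0.33 to 0.11 for Slc4a1, -0.12 to 0.60 for Klf1, 0.08 to 0.79 for Gata1, -0.08 to 0.51 for Epor and -0.36 to -0.08 for Tfrc. The rows at an unadjusted p of 0.05 numbered 0 to 3, the 3 without CON replicate 3, and 0 under every other setting. The median of the 7 lists ranged over -0.06 to 0.21, the globin share over 0.0226 to 0.145 percentage points and the Alas2 ratio over -0.22 to -0.05.

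Over all rows, 3 were higher and 3 lower in UAC at an adjusted p of 0.05 by edgeR. DESeq2 gave 220 higher and 137 lower, a minimum of 1 FPKM gave 0 lower, limma on FPKM plus 0.1 gave 1 lower, and limma on FPKM plus 1 gave 1 higher and 1 lower. Leaving out a library gave 1 to 9 higher and 0 to 8 lower, and 1739 to 3148 at an unadjusted p of 0.05, beside 2785 with all libraries, the lowest without CON replicate 2. The causes of these shifts were not tested.

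Whether the replicate numbers in the titles pair the samples is not stated. Same-numbered libraries had correlations of their deviations of -0.02, -0.01 and -0.03, and libraries of different number -0.02 to 0.03. Values near 0 over all genes cannot decide whether libraries were harvested or processed together. With the replicate block 0 rows were higher and 0 lower, and no member changed sign or passed the threshold. Each member rested on 145 or more counts in every library, and 3 libraries a group limit the precision.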

Other observations

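Fech, the last enzyme of heme synthesis, was named after its values were seen. It was at 6.70, 3.61 and 7.81 FPKM in UAC, against 5.88, 4.36 and 7.92 FPKM in CON, so that UAC replicate 2 was its lowest library and not CON replicate 2 (log2 fold change -0.05, adjusted p = 0.977 by edgeR). Gfi1b, a repressor of the erythroid and megakaryocyte lineages and picked in the same way, was lowest in UAC replicate 2, at 3.08, 2.12 and 4.14 FPKM in UAC, against 2.42, 2.58 and 4.79 FPKM in CON (log2 fold change -0.11, adjusted p = 0.950 by edgeR). Hbb was highest in that same library.

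Mb, the oxygen store of muscle and a globin outside the red cell lineage, was at 47.2, 8.84 and 6.96 FPKM in UAC, against 38.2, 59.6 and 28.6 FPKM in CON (log2 fold change -1.09, adjusted p = 0.687 by edgeR). It was highest in CON replicate 2, where Hbb and the α-globin row were lowest.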
